A study of Mus musculus with 6 samples.

Results

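The 10 genes described here belong to the BCL2 family, whose proteins decide at the outer membrane of the mitochondrion whether a cell survives or dies by apoptosis: Bcl2, Bcl2l1, Mcl1, Bax, Bak1, Bid, Bad, Bcl2l11, Bbc3 and Pmaip1. They were taken by gene symbol from a table of 15469 protein-coding genes, held 10 of its rows, and all 10 had enough counts to be tested. The 6 RNA libraries of the study came from macrophages washed out of the abdominal cavity of mice of the CAIA model (an abbreviation the labels do not spell out), sorted for RELM-α on their surface and plated in culture. In 3 libraries, labelled KO, the cells are described as deleted for PU.1, the ETS-family transcription factor encoded by Spi1, and in 3, labelled WT, as controls, with the stated interest in PU.1 and ferroptosis, a death by oxidised lipids that differs from apoptosis. The way PU.1 was deleted, and the strain, sex and age of the mice, are not stated in the labels. Nor do the labels tie replicates to different animals or cultures, and the p-values below reflect only how far these samples vary, which may be technical.

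In the family, survival proteins (BCL2, BCL-XL and MCL1) hold the pore-forming effectors BAX and BAK in check. The BH3-only proteins (BID, BAD, BIM, PUMA and NOXA) sense stress and loss of growth signals, bind the survival proteins and, in some cases, activate the effectors directly. Once BAX and BAK open the outer membrane, cytochrome c leaks out and caspases are activated. Macrophages depend on survival signals such as macrophage colony-stimulating factor, and MCL1 is known as a survival protein of myeloid cells.

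Some facts on the libraries touch every value below, and values of single libraries are given in the order of replicates 1, 2 and 3. The depth was 17280851 to 18632616 rounded counts per library. Spi1 itself was at 277 to 320 CPM (read counts per library size, with sizes scaled by the TMM method) in the libraries labelled KO and at 284 to 340 in those labelled WT (edgeR adjusted p = 0.561), so the amount of its transcript goes against the label of a deletion, and each direction given here is one between labels. Gene counts do not separate exons, and loss of part of the transcript would not be seen. All 4 tested Y-linked genes were lower under the label KO (each called), so the sex of the cells and the label cannot be told apart. KO replicate 1 stood apart from the other 2 of its group: across genes its log2 CPM correlated with theirs at r = 0.902 and 0.922, against 0.99 between KO replicates 2 and 3 and 0.988 to 0.992 among the libraries labelled WT. All 9 general macrophage markers tested were present, at a summed 20072 to 44820 CPM under KO and 35750 to 40016 CPM under WT. Of these, Csf1r was called higher under KO (1.72-fold, edgeR adjusted p = 0.0208) and 0 were called lower. Without a call, Adgre1 and Cd14 lay above WT and Cd68, Mrc1 and Mertk below it, each without overlap. Markers of large resident peritoneal macrophages were low (5 of the 6 in the table, 4.57 to 5.89 CPM against 4.07 to 4.63 CPM in sum), with Timd4 at 0 to 1.25 CPM. Among them Icam2 was called higher under KO (3.79 against 1.53 CPM, edgeR adjusted p = 0.0454). Selp was lower without a call (0.234 against 1.86 CPM, edgeR adjusted p = 0.0687). The gene of RELM-α itself, Retnla, is not analysed here. In such bulk samples, fewer cells of a type and less RNA per cell cannot be told apart.

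Of the 10 genes, 1 rose and 0 fell between the labels. The gene that rose was Bid, whose protein carries the signal of death receptors to the mitochondrion, with 1.61-fold more transcript in the libraries labelled KO. Bbc3, which encodes PUMA, was 1.53-fold higher in the means, without passing the test. Mcl1, Bax, Bad and Bcl2l11 lay within 0.11 of no difference on the log2 scale. A gene was called at a Benjamini-Hochberg adjusted p under 0.05 in the quasi-likelihood test of edgeR over 11424 genes, of which 3.32% were called (2.26% higher and 1.06% lower in KO). No member fell, and none was lower at an unadjusted p under 0.05 either, while 2 were higher at that level, against 22.7% of all genes in either direction. By DESeq2 and by limma-voom the count was likewise 1 higher and 0 lower, in tests that called 10.8% and 3.11% of genes. With RLE or upper-quartile factors, no filter, or only genes with a mean of 10 CPM or more, Bid was again the 1 member called (3.29%, 3.34%, 1.9% and 2.79% of genes). On log2(TPM + 1), which called 8.64% of genes, 3 members were called higher, Bid, Bbc3 and Bak1. In the authors' deposited table, made with DESeq2, Bid alone was past a q-value of 0.05 (q = 0.00016, log2 0.68, a positive sign standing for more in KO), where 8.02% of genes were. The median log2 difference of the 10 members was 0.15, beside -0.0059 over all genes tested. The groups did not overlap for 3 members, Bid, Bbc3 and Bak1, beside 31% of all tested genes. In all 3 the libraries labelled KO were the higher ones, as in 18.4% of genes, and the reverse, found in 12.6% of genes, held for 0 members.

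**Figure D1:**
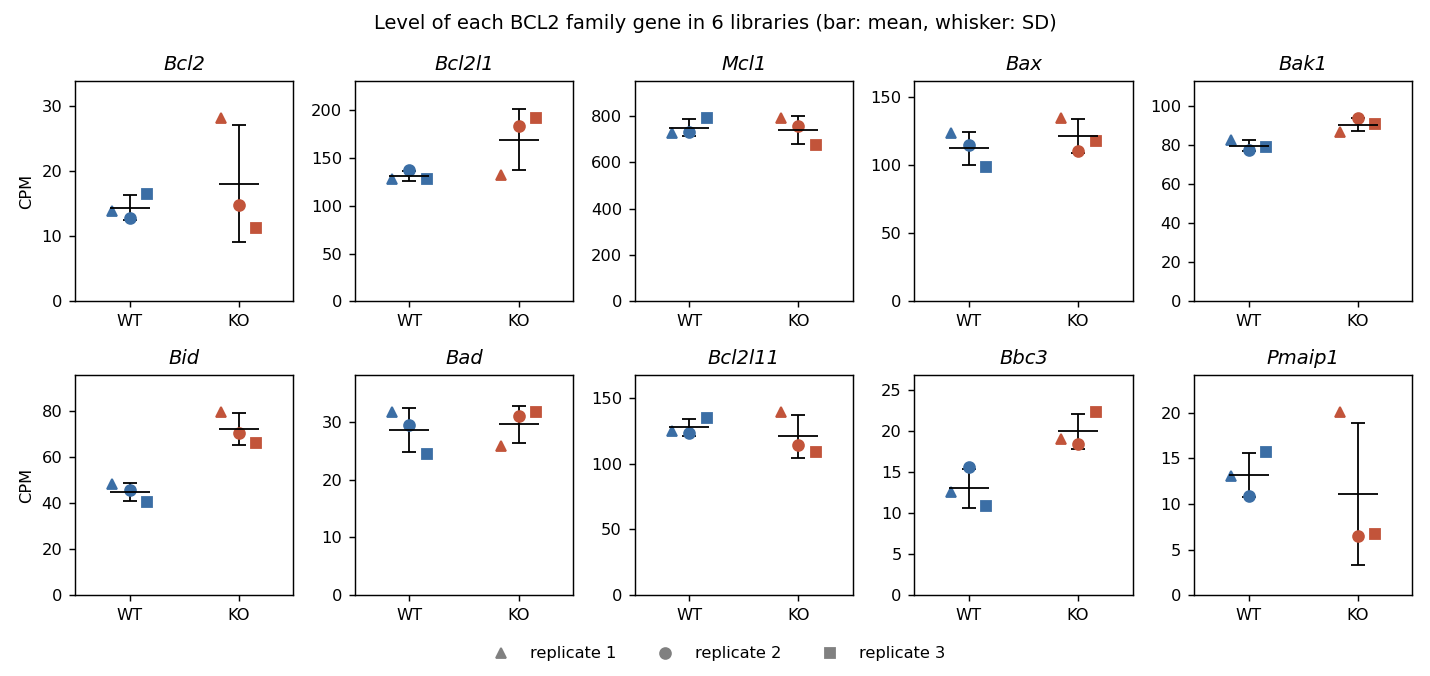
Level in CPM (y axis, from 0) of each of the 10 genes in the 3 libraries labelled WT and the 3 labelled KO, with marker shape for the replicate number, a bar for the mean and a whisker for the SD. The groups do not overlap for Bak1, Bid and Bbc3, and KO replicate 1 (triangle) lies far above the other 5 libraries for Bcl2 and above them by less for Pmaip1.

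Mcl1 and Bax were the most abundant transcripts of the family and Bcl2 the least. Levels of different genes were compared as deposited TPM, which take account of transcript length. Mcl1 was highest at 349 ± 33.8 TPM (SD, n = 3), followed by Bax at 272 ± 18.9, Bcl2l1 at 85.5 ± 4.58, Bak1 at 68.4 ± 2.92 and Bad at 57.1 ± 5.1 TPM. Bcl2l11, at 41.2 ± 3.82, and Bid, at 40.9 ± 1.82 TPM, came next, and these were the only neighbours in the order whose WT libraries overlapped. Bbc3 at 11.9 ± 1.53, Pmaip1 at 8.31 ± 1.85 and Bcl2 at 3.21 ± 0.569 TPM were the lowest. Mcl1 and Bax lay at the 97.7th and 97.1st percentile of WT levels over all 15469 genes of the table, and Bcl2, the founding member of the family, at the 40.5th. Under the label KO, Bid was at 73.3 ± 10.7 TPM, a range that overlapped that of Bad (65.2 ± 4.27 TPM) and lay above that of Bcl2l11 (43.1 ± 8.05 TPM).

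**Figure D2:**
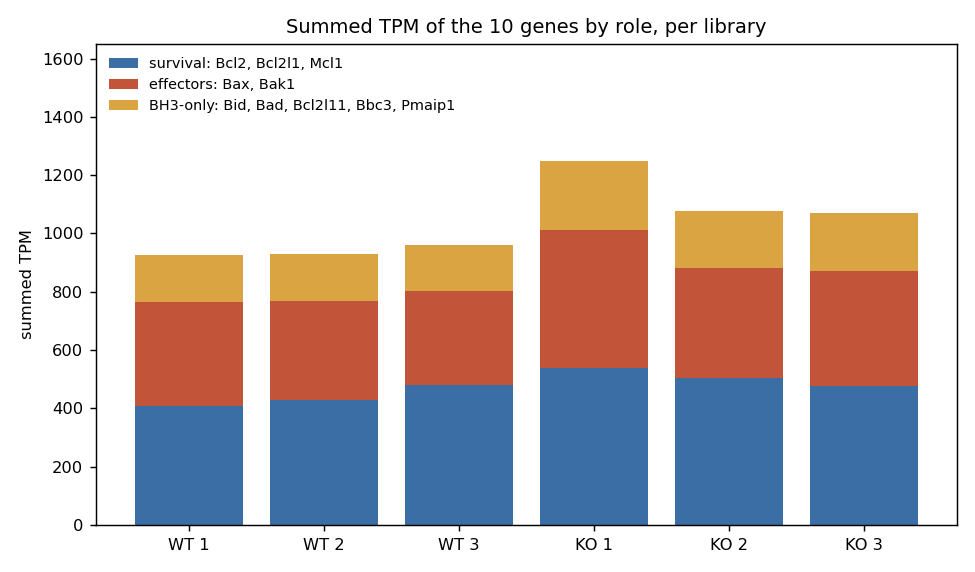
Summed TPM of the 10 genes (y axis) in each library (x axis), stacked by role: survival genes, effectors and BH3-only genes. The sums run from 927 to 960 TPM in WT and from 1071 to 1247 TPM under KO, and the BH3-only share runs from 16.4% to 18.7%.

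Summed by role, the 3 survival genes took 43.9%, 46.1% and 49.9% of the family's TPM under the label WT and 43.3%, 46.8% and 44.4% under KO, so the groups overlapped. The effectors took 33.7% to 38.5% in WT and 34.9% to 38% under KO. The 5 BH3-only genes took 17.5%, 17.1% and 16.4% in WT and 18.7%, 18.3% and 18.5% under KO, without overlap. Their summed TPM was 157 to 162 in WT and 198 to 234 under KO. In the means, Bid, the called member, went from 40.9 TPM in WT to 73.3 TPM under KO. Bad went from 57.1 to 65.2, Bbc3 from 11.9 to 20.4, Bcl2l11 from 41.2 to 43.1 and Pmaip1 from 8.31 to 7.89 TPM. The gap in the BH3-only share thus largely restates the difference in Bid. Mcl1 alone made up 35% to 40.4% of the family's TPM in WT and 31.7% to 34.7% under KO. These sums are descriptions and carry no test. On the TPM scale the median gene was 0.12 higher in KO (log2, pseudocount 1), so changes in TPM are to be read against that shift.

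Among the survival genes none passed the test. Mcl1 (gene ID 17210, chromosome 3, 95656944 to 95663179, plus strand; all places are RefSeq's for GRCm38.p6) encodes a survival protein of rapid turnover. It was at 793, 756 and 676 CPM under the label KO, against 727, 732 and 793 CPM under WT. The groups overlapped, with KO replicate 3 the lowest, and the log2 difference was -0.018 (SE 0.0972, 95% interval -0.26 to 0.22, adjusted p = 0.916), with a sign that turned under upper-quartile factors (0.036) and in the test on log2(TPM + 1) (0.13). The interval corresponds to folds between 0.838 and 1.16.

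Bcl2l1 (chromosome 2, 152758732 to 152833803, minus strand) encodes BCL-XL, and by splicing also a short form with the opposite action, which gene counts do not separate. It was at 133, 183 and 192 CPM in the libraries labelled KO and 129, 137 and 129 CPM in those labelled WT. KO replicate 1 lay inside the WT range and KO replicates 2 and 3 well above it. The fitted log2 difference was 0.37 (SE 0.153, 95% interval -0.0079 to 0.74, adjusted p = 0.227). Without KO replicate 1 it was 0.53 (adjusted p = 0.00099), in a fit that called 49.6% of all genes, and corrected for the GC content and length of transcripts it was 0.21 (adjusted p = 0.242). KO replicates 2 and 3, highest in Bcl2l1, also stood apart in 7 mesothelial cell and fibroblast markers, which summed to 21.3 and 33.5 CPM there and to 2.2 to 8.14 CPM in the other libraries. Platelets carry much BCL-XL, and the 6 platelet and megakaryocyte markers had their lowest sums in the same pair, 17.3 and 16.3 CPM, against 55.1 CPM in KO replicate 1 and 60.9 to 105 CPM under the label WT. Pf4 held 44.9 CPM of the sum in KO replicate 1, against 14.5 to 21.8 CPM in the other libraries. Each other marker of this list was lower in every library labelled KO than in any labelled WT. Of the 6, 3 were called lower and 0 higher, beside 1.06% and 2.26% of all genes. The part of either cell type in the Bcl2l1 values was not tested.

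Bcl2 (chromosome 1, 106538176 to 106714290, minus strand) was at 28.1, 14.8 and 11.2 CPM under the label KO, against 13.8, 12.8 and 16.5 CPM under WT. Only KO replicate 1 was far from the rest. The log2 difference of 0.33 (SE 0.358, 95% interval -0.55 to 1.21, adjusted p = 0.583) became -0.13 without that library. Lymphocytes express much Bcl2. The 5 B cell markers in the table summed to 3.41 CPM in KO replicate 1, mostly Cd79b at 3.25 CPM, and to 1.33 to 1.96 CPM in the other 5 libraries, while those of T and NK cells summed to 0.165 CPM in KO replicate 1 and to 0.407 to 1.15 CPM in the others. Dendritic cell markers summed to 8.92 CPM in KO replicate 1, mostly Cd209a at 7.38 CPM, and to at most 1.56 CPM in the other 5 libraries. The part of any of these cell types in the Bcl2 value was not tested. The deposited table lists Bcl2 on the plus strand, while RefSeq and GENCODE place it on the minus strand with a noncoding gene running against it, and reads of the pair cannot be told apart here, since the strand setting of the counting is not known.

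Neither effector passed the test, and Bak1 was slightly higher in each library labelled KO. Bax (chromosome 7, 45461695 to 45466903, minus strand), whose protein moves from the cytosol to mitochondria, was at 135, 111 and 118 CPM in the libraries labelled KO and 124, 115 and 99.2 CPM in those labelled WT. The groups overlapped, and the log2 difference was 0.11 (SE 0.123, 95% interval -0.19 to 0.41, adjusted p = 0.595). Bak1 (chromosome 17, 27019812 to 27028627, minus strand), whose protein resides in the outer mitochondrial membrane, was at 87, 94.1 and 90.7 CPM under the label KO, against 82.8, 77.3 and 79.2 CPM under WT. Every library labelled KO was above every library labelled WT, by a narrow margin. The log2 difference of 0.18 (SE 0.0785, 95% interval -0.0085 to 0.37) had an adjusted p of 0.234. Without KO replicate 1 the adjusted p was 0.0497, and in the test on log2(TPM + 1) it was 0.0384 with a log2 difference of 0.33. With the other 5 libraries left out in turn it was 0.384 to 0.612, and corrected for GC and length the difference was 0.084 (adjusted p = 0.506). Bak1 lies within the gene Ggnbp1 on the other strand, which had 0.608 CPM under KO and 0.939 CPM under WT.

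The BH3-only genes held the called member and, in Pmaip1, the largest relative spread within a group. Bid (gene ID 12122, chromosome 6, 120893119 to 120917062, minus strand) encodes a protein that caspase-8 cuts into an active fragment. It was at 79.9, 70.6 and 66.2 CPM in the libraries labelled KO and 48.3, 45.7 and 40.5 CPM in those labelled WT. The lowest library labelled KO was well above the highest labelled WT. Bid averaged 72.2 ± 6.97 CPM under KO and 44.9 ± 4 CPM under WT (SD, n = 3), with a log2 difference of 0.69 (SE 0.116, 95% interval 0.40 to 0.97, adjusted p = 0.0415), and on the TPM scale the ratio of means was 1.79. The call was lost when any library other than KO replicate 1 was left out, with adjusted p of 0.153 and 0.154 without KO replicate 2 or 3 and of 0.171, 0.247 and 0.137 without WT replicate 1, 2 or 3, and without KO replicate 1 it was 0.00186. The log2 difference stayed between 0.61 and 0.72 in these fits. Corrected for the GC content and length of transcripts, chosen after seeing the data, the difference was 0.55 (adjusted p = 0.0983), in a fit that called 5.91% of genes. Of 10 marker lists of cell types, the sums of 2 did not overlap between the labels: 6 neutrophil markers (2.19 to 5.78 CPM under KO, 8.05 to 9.3 CPM under WT, 4 of them below 1 CPM throughout) and the platelet markers above. Their part in the Bid values was not tested. Bid and Bcl2l13, its neighbour on the other strand, overlap by 913 bases at their ends in GENCODE, and Bcl2l13 was at 59 CPM under KO and 49.7 CPM under WT (adjusted p = 0.247). The deposited table gives Bid a range that starts on an alternative scaffold, so its place here is RefSeq's.

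Bbc3 (chromosome 7, 16308398 to 16318334, plus strand) encodes PUMA, a BH3-only protein induced by p53 that binds all the survival members. It was at 19.1, 18.4 and 22.4 CPM under the label KO, against 12.6, 15.7 and 10.9 CPM under WT. Again all libraries labelled KO were above all those labelled WT. The log2 difference of 0.62 (SE 0.172, 95% interval 0.20 to 1.04) had an unadjusted p of 0.0114 and an adjusted p of 0.109. Bbc3 passed in 3 other fits: corrected for GC and length (0.61, adjusted p = 0.0393, 5.91% of all genes called), without KO replicate 1 (0.66, adjusted p = 0.0125, 49.6% called) and on log2(TPM + 1) (0.73, adjusted p = 0.0334, 8.64% called). Without any of the other 5 libraries it did not, with adjusted p of 0.254 to 0.380 and differences of 0.49 to 0.74. By DESeq2 the adjusted p was 0.0513.

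The 3 promoters shown are those of the members whose groups did not overlap. Each is the 250 bases before a RefSeq start site (GRCm38.p6), 5′ to 3′ on the strand of the gene, and for Bbc3, which has 3 listed start sites, before the most upstream of these. Capitals mark GAGGAA and the longer GAGGAAGT, on either strand, the purine-rich core of sites that PU.1 is known to bind. The windows are chr6:120916825-120917074 on the minus strand for Bid, chr17:27028628-27028877 on the minus strand for Bak1 and chr7:16309333-16309582 on the plus strand for Bbc3. The start sites used for Bid and Bbc3 lie inside the ranges given for these genes above, which begin further upstream, so their windows fall within those ranges wholly (Bbc3) or for the most part (Bid).
Bid: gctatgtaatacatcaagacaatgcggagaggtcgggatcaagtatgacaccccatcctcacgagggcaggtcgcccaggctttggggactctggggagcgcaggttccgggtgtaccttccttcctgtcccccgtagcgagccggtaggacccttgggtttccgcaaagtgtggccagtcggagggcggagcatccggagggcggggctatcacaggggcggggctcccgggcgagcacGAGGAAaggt
Bak1: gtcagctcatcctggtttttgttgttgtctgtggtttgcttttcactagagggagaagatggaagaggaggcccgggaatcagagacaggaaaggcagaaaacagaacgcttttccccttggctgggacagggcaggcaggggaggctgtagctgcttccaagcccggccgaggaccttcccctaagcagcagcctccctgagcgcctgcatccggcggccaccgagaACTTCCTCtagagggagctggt
Bbc3: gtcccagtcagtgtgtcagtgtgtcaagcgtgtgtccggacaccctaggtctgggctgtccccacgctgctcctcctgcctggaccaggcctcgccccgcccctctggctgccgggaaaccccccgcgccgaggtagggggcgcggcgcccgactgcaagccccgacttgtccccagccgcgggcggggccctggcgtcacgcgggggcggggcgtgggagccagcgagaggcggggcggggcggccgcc
In Bid the 6 bases begin 10 bases before the start, and in Bak1 the 8 bases, on the other strand, begin 22 bases before it. Bbc3 has no match in this window. The counts for the family leave out Pmaip1 and cover the 15 windows of the other 9 members, so they do not describe its promoter. GAGGAA was in 4 of the 15 (Bcl2, Bid, Bak1 and Bad) and GAGGAAGT, which contains it, in 2 (Bak1 and Bad). Of all 32851 windows of that length, 23.3% and 2.44% held them. A half-site of the p53 consensus was in 1 of the 15 windows, that of Bax, 201 bases before the start, against 7.13% of all windows. A match is a match of letters, and no binding was measured.

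Pmaip1 (chromosome 18, 66458604 to 66465558, plus strand), which encodes NOXA, a partner of MCL1, varied most among the libraries labelled KO. It was at 20.1, 6.52 and 6.72 CPM in the libraries labelled KO and 13, 10.9 and 15.7 CPM in those labelled WT. KO replicate 1 was above every other library and KO replicates 2 and 3 were below every library labelled WT, so the group mean of 11.1 ± 7.81 CPM describes none of them. The log2 difference was -0.25 (SE 0.489, 95% interval -1.46 to 0.96, adjusted p = 0.762). Without KO replicate 1 it was -0.98 (adjusted p = 0.00253), where 26% of all genes were called lower, and corrected for GC and length it was 0.062. The counts behind these values were 127 to 366 per library, among the smallest of the 10 genes.

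Bcl2l11 (chromosome 2, 128126038 to 128162547, plus strand), which encodes BIM, the BH3-only protein that answers to loss of growth factors, was at 140, 114 and 109 CPM under the label KO, against 125, 123 and 135 CPM under WT. As for Pmaip1, KO replicate 1 was the highest of the 6 libraries and KO replicates 2 and 3 were the lowest. The log2 difference was -0.079 (SE 0.118, 95% interval -0.37 to 0.21, adjusted p = 0.687), and 0.054 on log2(TPM + 1). Bad (chromosome 19, 6941861 to 6951905, plus strand), whose protein is held inactive by survival kinases such as AKT, was at 25.9, 31.1 and 31.8 CPM in the libraries labelled KO and 31.8, 29.5 and 24.4 CPM in those labelled WT. The groups covered the same range, with a log2 difference of 0.049 (SE 0.143, 95% interval -0.30 to 0.40, adjusted p = 0.844). Bad overlaps the start of Gpr137 on the other strand by 620 bases, and Gpr137 was at 38.2 CPM under KO and 42.7 CPM under WT.

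**Figure D3:**
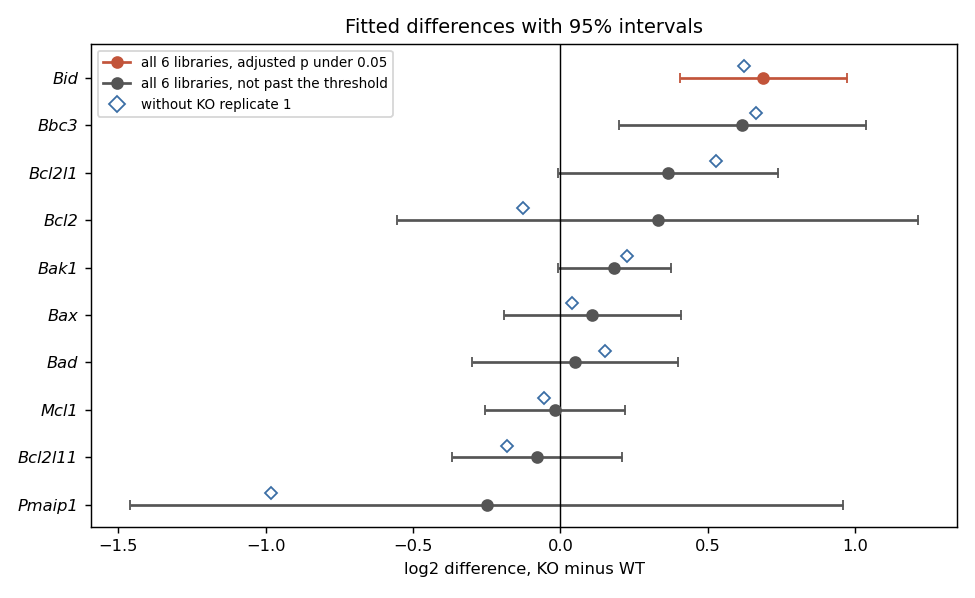
Fitted log2 difference (x axis, KO minus WT) of each gene (y axis) with its 95% interval from all 6 libraries, red where the adjusted p is under 0.05, and, as open diamonds, the value without KO replicate 1. The interval of Bid, 0.40 to 0.97, lies to the right of 0, and leaving out KO replicate 1 moves Pmaip1 from -0.25 to -0.98 and Bcl2 from 0.33 to -0.13.

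KO replicate 1 was the highest of all 6 libraries for 5 of the 10 members (Bcl2, Bax, Bid, Bcl2l11 and Pmaip1) and the lowest for 0, against 20.4% and 20.6% of all genes. When it was left out, 5 members were called, Bid, Bbc3, Bcl2l1 and Bak1 higher and Pmaip1 lower, in a fit that called 23.6% of all genes higher and 26% lower. Its macrophage marker sum of 20072 CPM was also the lowest, and most of that sum is Lyz2, at 13171 CPM against 29743 to 36709 CPM elsewhere. The markers did not all follow. Csf1r was highest in KO replicate 1, at 2900 CPM against 1560 to 2609 CPM, while Itgam, Cd68, Mertk and Fcgr1 were lowest there. The part of these differences in the values of the family was not tested. With any of the other 5 libraries left out, edgeR called 0 members, and of all genes 0.13% and 0.0952% without KO replicate 2 or 3 and 0.119%, 0.0427% and 0.0598% without WT replicate 1, 2 or 3. Bid kept an unadjusted p of at most 0.00815 in each of these fits, which use the libraries the call was made from.

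The genes whose levels followed Bid most closely over the 6 libraries, of 8279 with a mean of at least 10 CPM, were Fkbp5 (Pearson's r of log2 CPM 0.997), a co-chaperone induced by glucocorticoids, Cbx6 (0.994), a Polycomb protein, and Fam234b (0.992). They share the 6 libraries and the difference between labels with Bid, and 107 genes had an r over 0.95. Fkbp5 was at 24.1 ± 8.2 against 6.59 ± 1.49 CPM (3.65-fold, adjusted p = 0.0396) and Cbx6 at 52.2 ± 5.75 against 20.4 ± 4.06 CPM (2.56-fold, adjusted p = 0.0234). Fam234b, at 19.1 ± 1.36 against 14.6 ± 0.69 CPM, was not called (adjusted p = 0.112). The calls of Fkbp5 and Cbx6, like that of Bid, were lost without any library other than KO replicate 1.

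In the wider pathway the called genes were targets of p53 and a relative of BNIP3. The p53 list held p53 itself and genes it is known to activate. Of 16 tested, 4 rose and 0 fell, beside 2.26% and 1.06% of all genes. At an unadjusted p under 0.05, 6 were higher and 0 lower, beside 22.7% of all genes in either direction. The median log2 difference of the list was 0.17, beside -0.0059 over all genes. Cdkn1a, the cell cycle inhibitor p21, was at 193, 200 and 185 CPM under the label KO, against 105, 106 and 92.3 CPM under WT. All 3 libraries labelled KO, KO replicate 1 among them, were close together and far above WT, 1.91-fold (log2 0.93, SE 0.0895, adjusted p = 0.0147). Phlda3, an inhibitor of AKT signalling, was at 20.9, 18.6 and 22.3 CPM in the libraries labelled KO and 8.96, 9.36 and 9.37 CPM in those labelled WT (2.23-fold, adjusted p = 0.0157). Sesn2, a stress-induced inhibitor of mTORC1, rose 1.87-fold from 16.4 ± 1.3 to 30.5 ± 2.28 CPM (adjusted p = 0.0219). The remaining called gene, Zmat3, an RNA-binding p53 target named after its values were seen, rose 1.58-fold to 54.8 ± 2.09 CPM (adjusted p = 0.0326). All 4 stayed called by DESeq2 and limma-voom, where the list held 5 and 4 called genes, beside 10.8% and 3.11% of all genes. With the GC and length correction Cdkn1a, Phlda3 and Sesn2 were called and Zmat3 was at 0.0532, and without any library other than KO replicate 1 none of the 4 was called.

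The p53 gene Trp53 was at 67.1 ± 4.72 CPM under KO and 55.1 ± 3.74 CPM under WT (log2 0.29, adjusted p = 0.163), and the death receptor gene Tnfrsf10b at 3.28 ± 0.896 against 1.48 ± 0.398 CPM (adjusted p = 0.117 by edgeR and 0.0469 by DESeq2); both were named after their values were seen. The list was not of one direction: 7 of its 16 tested genes had a negative difference. Mdm2, for example, was at 160, 95.8 and 95.4 CPM under KO against 127 to 152 CPM under WT (edgeR adjusted p = 0.572). Ccng1 was at 171, 61.7 and 86.8 CPM against 142 to 178 CPM (edgeR adjusted p = 0.416). In both, KO replicates 2 and 3 lay below WT and KO replicate 1 did not. Both were likewise named after their values were seen. The family members Bax, Bbc3 and Pmaip1 are also known as p53 targets and were counted with the family.

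**Figure D4:**
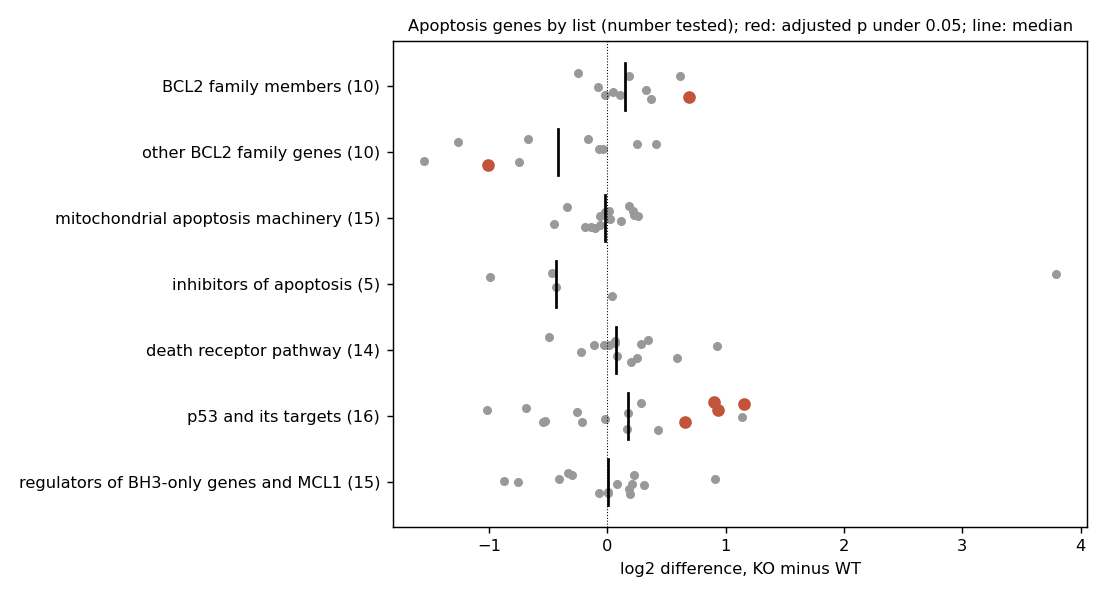
Fitted log2 differences (x axis, KO minus WT) of the tested genes of the family and of 6 apoptosis lists (y axis, number tested in brackets), a point per gene, red where the adjusted p is under 0.05, with a line at each median. Of the 4 red points of the p53 list all lie to the right of 0, and the outlying grey point is Birc5 at 3.79.

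Among the other BCL2 family genes, of 10 tested 0 rose and 1 fell, beside 2.26% and 1.06% of all genes. Bnip3l, which encodes NIX, a receptor for the removal of mitochondria by autophagy, was at 109, 87.1 and 104 CPM under the label KO, against 180, 197 and 225 CPM under WT. The groups were far apart, at 0.497 of the WT level (log2 -1.01, SE 0.129, adjusted p = 0.0234). But the GC and length correction moved the difference to -0.51 (adjusted p = 0.137), and the call was lost without any library other than KO replicate 1. With that correction 1 other gene of the list was called higher and 0 lower, in a fit that called 5.91% of all genes. Bcl2a1b, a survival gene of the A1 cluster named after its values were seen, was at 11.3, 61.7 and 70.4 CPM in the libraries labelled KO and 108, 114 and 123 CPM in those labelled WT (adjusted p = 0.288). KO replicate 1 was the lowest here. The A1 genes are near-identical copies, and reads may have been split among them.

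Of the mitochondrial machinery downstream, edgeR, DESeq2 and limma-voom called 0 of 15 genes. By edgeR 0 were higher and 2 lower at an unadjusted p under 0.05, beside 22.7% of all genes in either direction. Corrected for GC and length, 2 fell, Diablo and Casp9, in a fit that called 5.91% of all genes (313 of 11277 lower). Cycs, which encodes cytochrome c, had the smallest p, at 49.3 ± 8.54 against 67.2 ± 3.72 CPM (log2 -0.45, adjusted p = 0.136), and its difference was 0.15 with the GC and length correction. Of 5 inhibitors of apoptosis, edgeR and limma-voom called 0, with 1 higher at an unadjusted p under 0.05, beside the same 22.7%. DESeq2 called 1, beside 10.8% of all genes. That gene, Birc5 (survivin, which also acts in mitosis), was at 4.46, 40.1 and 32 CPM under KO, lowest in KO replicate 1, and at 1.74 to 1.96 CPM in the libraries labelled WT (log2 3.79, SE 0.828, adjusted p = 0.0701 by edgeR and 4.37e-06 by DESeq2). Of 14 death receptor genes tested, 0 were called by edgeR, DESeq2 or limma-voom, with 2 higher at an unadjusted p under 0.05, again beside 22.7%. Ripk1, the kinase at the fork between survival and death signalling, had the smallest p, at 143 ± 8.86 against 120 ± 7.33 CPM (adjusted p = 0.172). Of 15 regulators of BH3-only genes and of MCL1, edgeR and limma-voom called 0, with 2 higher and 3 lower at an unadjusted p under 0.05, beside 22.7% of all genes. DESeq2 called 2 higher and 1 lower, beside 10.8% of all genes. Stat5b, a transcription factor of cytokine signalling, was at 85.4 ± 2.82 against 68.8 ± 2.41 CPM (log2 0.31, adjusted p = 0.0905 by edgeR and 0.0307 by DESeq2).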

How the data were processed

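Per the labels' protocols, the 6 libraries were made from bead-captured, heat-fragmented mRNA with PCR amplification and read on a NovaSeq. The submitters' processing notes name fastp 0.18.0 and the build GRCm39, while the deposited table carries GRCm38 sequence names. The aligner, counter and strand setting were not given in the sources used here. Per the file headers, the authors deposited unnormalized estimated counts, of which 4.82% to 5.49% per library were not whole, and all were rounded. The authors also deposited TPM, used for levels between genes, and FPKM, not used, per the file headers. Per the file headers, the log2 fold changes and q-values the authors deposited were computed with DESeq2.

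Groups were taken from the sample titles. Genes kept by filterByExpr (minimum count of 10) were scaled with TMM factors and tested with edgeR 4.0.16 (R 4.3.3, robust quasi-likelihood, group as the only term), with Benjamini-Hochberg adjustment over 11424 genes, after the scripts were tested on simulated data. As alternatives, DESeq2 1.42.0, limma-voom, limma-trend on log2(TPM + 1) (limma 3.58.1), RLE or upper-quartile factors, a fit without filter, another restricted to genes averaging 10 CPM or more, a block for the replicate number, and fits leaving out each library were run. A correction for GC content and length of the longest GENCODE transcript (mgcv 1.9.3 smooths per library as offsets, on 98.7% of tested genes) was chosen after seeing the data. All calls split into 354 higher and 313 lower with it and 866 and 121 on log2(TPM + 1), against 258 and 121.

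The members and lists were chosen with earlier results of these data known. The rule for named genes took the 10 members, from each pathway list up to 3 called genes averaging 1 CPM or more, by size of change, or, where none was called, that with the smallest p, and the 3 genes most like the member with the smallest p. Marker lists not mentioned in the results were those of eosinophils with mast cells (1.54 to 7.19 CPM in sum under KO and 3.9 to 6.55 CPM under WT) and erythroid cells (0 to 1.27 and 1.1 to 1.5 CPM).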

Additional observations from a re-analysis of the deposited data

How the results depend on the processing

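The count of called family members, 1 of 10, was 1 with RLE or upper-quartile factors, DESeq2, limma-voom, without filter and among genes averaging 10 CPM or more. Corrected for GC and length it was also 1, but the gene called was Bbc3 and not Bid. It was 3 on log2(TPM + 1) with limma-trend and ranged from 0 to 5 when 1 library was left out. The 6 pathway lists held 82 genes of the table, not all of them tested. The count of called pathway genes, 5 in the main fit, was 10 by DESeq2, 9 on log2(TPM + 1) and 0 to 42 when 1 library was left out. Over all genes these fits called 3.32%, 10.8%, 8.64% and 0.0427% to 49.6%, and the count of 42 came from the fit with 49.6%. With the replicate number as a block edgeR called 0 members, 0 pathway genes and 0 of all 11424 genes. The deviations of same-numbered libraries from their group means correlated at -0.16, 0.25 and -0.27, and 2 of the 6 correlated best with their own number. With so few libraries a group, and KO replicate 1 far from the rest of its group, these values cannot tell whether same-numbered libraries share more than a number. Genes with no call changed sign: Mcl1 to 0.036 with upper-quartile factors, 0.0042 among genes averaging 10 CPM or more, 0.13 on log2(TPM + 1) and -0.064 to 0.017 with 1 library left out, Bcl2l11 to 0.054 on log2(TPM + 1), Pmaip1 to 0.062 and Cycs to 0.15 with the GC and length correction. With 1 library left out, Bcl2 ranged from -0.13 to 0.55 and Bad from -0.058 to 0.15. The causes were not tested. Pmaip1, Bcl2 and Bbc3, with the fewest counts of the 10 genes, have the least counting precision among them.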

Other observations

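Some genes of the apoptosis lists were low in KO replicates 2 and 3 and not in KO replicate 1; those given here were named after their values were seen. Xiap, a direct inhibitor of caspases, was at 101, 12.1 and 26.6 CPM under the label KO, against 70.8, 81.8 and 126 CPM under WT. Birc6, a giant ubiquitin ligase of the same family, was at 204, 39 and 65.4 CPM under KO against 108 to 182 CPM under WT. Usp9x, a deubiquitinase that stabilises MCL1, was at 198, 25 and 66.8 CPM against 145 to 222 CPM. With all 6 libraries the log2 differences of Xiap, Birc6 and Usp9x were -0.99, -0.43 and -0.87, and none was called (edgeR adjusted p of 0.455, 0.677 and 0.475). Without KO replicate 1 they were -2.25, -1.40 and -1.93, in a fit that called 49.6% of all genes. Their longest transcripts measure 6834, 15768 and 11887 bases, against 1100 to 7191 bases for the 10 family members, a range that includes Xiap. Their GC content was 36.8%, 46.4% and 40%, against 42.1% to 65.2% for the members. Other genes of the lists did not sort by length. Huwe1 (14579 bases) was at 276, 148 and 164 CPM under KO against 154 to 231 CPM under WT. Rrm2b (4561 bases) was at 9.25, 1.75 and 3.18 CPM against 7.39 to 12.6 CPM. With the GC and length correction on all 6 libraries the differences of Xiap, Birc6 and Usp9x were -0.56, -0.48 and -0.48, smaller than uncorrected for Xiap and Usp9x and slightly larger for Birc6. The part of transcript length or GC content in these values was not tested.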
